A study of Mus musculus with 12 samples.

Results

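Heparan sulfate is the sulfated sugar chain of syndecans, glypicans and matrix proteins such as perlecan and agrin. The genes described here were 10 genes for its synthesis and its core proteins, namely Ext1, Ext2, Extl1, Extl2 and Extl3 for the chain itself, Ndst1, Hs6st1 and Impad1 for its sulfation, and Hspg2 and Sdc4 for the proteins that carry it. They are 10 of the 32783 genes listed in at least 1 of the 2 count tables, and all 10 were expressed highly enough to be tested in each comparison. The group was selected on the astrocyte vector comparison, since Extl1, Extl3 and Impad1 were strongly lower in astrocytes that received the A2A receptor vector. The other 7 belong to the same pathway. The values of all 10 genes in the astrocyte vector comparison are therefore given as a description, and nothing is read from their tests.

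The question behind the data was how more adenosine A2A receptor in hippocampal astrocytes alters the RNA of these cells and of the microglia beside them. C57Bl6/J male mice received AAV2/9-GfaABC1D-Bglob-A2AR-WPRE (AAV-A2A) or the matching GFP vector (AAV-GFP, control) in CA1 on both sides of the brain at 2 months of age. Cells were sorted from dissected hippocampi at 4 months, 2 months post-injection, so that astrocytes from outside CA1 could be among them. GfaABC1D is an astrocyte promoter, so that control astrocytes carry a vector as well and differ in its cargo, murine Adora2a or GFP. Astrocytes were bound by ACSA-2 beads, and microglia by CD11b beads from the cells that ACSA-2 beads had left behind, which gave 3 libraries per vector and fraction. Libraries are named by vector and number. Those of astrocytes were GFP-303, GFP-306, GFP-307, A2A-309, A2A-310 and A2A-313, and those of microglia GFP-2328, GFP-2329, GFP-2331, A2A-2343, A2A-2344 and A2A-2347. For the astrocyte data the groups are given as 3 animals each. The labels do not tie a CD11b library to 1 mouse, so p-values there measure the spread between libraries, which may in part be technical.

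Astrocyte libraries held 33937067 to 49217553 counts on genes and microglia libraries 36098295 to 53206974, and intervals over counts would cover counting error only because PCR copies were not removed by molecular identifiers. Adora2a had 774 to 981 counts in the AAV-GFP astrocyte libraries and 27303 to 42668 in the AAV-A2A ones, which matches their labels. In CD11b libraries it had 201 to 318 counts with AAV-GFP and 653 to 1529 with AAV-A2A. The source of the counts in CD11b libraries was not tested. The 8 astrocyte markers summed to 23698 to 38902 CPM in ACSA-2 libraries and 192 to 479 CPM in CD11b libraries, where CPM is the count scaled to a common library depth with TMM factors. Microglia markers summed to 46277 to 56104 CPM in A2A-2343, A2A-2344 and GFP-2331 but only to 7470, 14867 and 21947 CPM in GFP-2328, GFP-2329 and A2A-2347. These last 3 CD11b libraries stood apart, with 76425, 62100 and 31710 CPM on 7 choroid plexus markers such as Ttr, against 9.08 to 95.4 CPM in the other 3. Some results on CD11b libraries are also given without them.

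As background, chain synthesis starts on a short linker sugar that xylosyltransferases begin on the core protein. EXTL3 adds the first glucosamine unit that commits the linker to heparan sulfate, the EXT1 and EXT2 proteins work as a complex that lengthens the chain, and NDST, epimerase and O-sulfotransferase enzymes then place sulfate groups in patterns that decide which ligands bind. Sulfate comes from the donor PAPS, and the leftover nucleotide PAP has to be broken down for transfer to go on. In the brain these chains bind growth factors, synaptic organisers and matrix proteins, and astrocytes are a known source of them.

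On GRCm38, Extl1 (chr4:134356372-134383850), Impad1 (chr4:4762484-4793355) and Hspg2 (chr4:137468769-137570630) lie on chromosome 4, and Ext2 (chr2:93661028-93822568) and Sdc4 (chr2:164424247-164443887) on chromosome 2. Ext1 (chr15:53064038-53346159), Extl2 (chr3:116007462-116029017), Extl3 (chr14:65052060-65149855) and Hs6st1 (chr1:36068400-36106446) lie on 4 other chromosomes. Counts were taken over the exons of a gene.

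Windows before the RefSeq start sites (GRCm38.p6) were at hand for 6 of the 10 genes. The windows of Extl1, Hspg2 and Sdc4, which were lower in AAV-A2A astrocytes, are shown with those of Ext2 and Extl2, whose levels lay close to the control, so that genes with and without a difference can be read side by side. Each is written 5′ to 3′ on the strand of the gene and covers the 250 bases before the start site, less any base that the annotation places in an exon of that gene. Capitals mark matches on either strand to common promoter motifs. These were the cyclic AMP response element (CRE, TGACGTCA) with the half-site contained in it (TGACG). The motif of TEAD factors was searched as GGAATG. The GC box was searched as GGGCGG, the motif of NF-Y factors as CCAAT, the E-box of basic helix-loop-helix factors as CACGTG and the TATA box of the basal machinery as TATAAA. They lie at chr4:134372559-134372797 (minus strand, Extl1), chr4:137468553-137468768 (plus strand, Hspg2), chr2:164443189-164443438 (minus strand, Sdc4), chr2:93822569-93822818 (minus strand, Ext2) and chr3:116007199-116007448 (plus strand, the first of 2 windows of Extl2). The Extl1 and Sdc4 windows lie inside the annotated genes, which also have starts further upstream.
Extl1: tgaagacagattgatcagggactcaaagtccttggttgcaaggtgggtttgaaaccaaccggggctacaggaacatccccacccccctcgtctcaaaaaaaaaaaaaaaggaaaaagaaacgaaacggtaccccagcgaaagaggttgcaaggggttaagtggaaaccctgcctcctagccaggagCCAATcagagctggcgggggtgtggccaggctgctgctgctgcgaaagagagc
Hspg2: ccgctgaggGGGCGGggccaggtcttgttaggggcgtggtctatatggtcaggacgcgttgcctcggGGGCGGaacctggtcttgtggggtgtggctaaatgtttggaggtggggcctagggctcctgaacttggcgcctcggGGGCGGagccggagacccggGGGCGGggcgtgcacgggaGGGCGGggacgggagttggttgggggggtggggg
Sdc4: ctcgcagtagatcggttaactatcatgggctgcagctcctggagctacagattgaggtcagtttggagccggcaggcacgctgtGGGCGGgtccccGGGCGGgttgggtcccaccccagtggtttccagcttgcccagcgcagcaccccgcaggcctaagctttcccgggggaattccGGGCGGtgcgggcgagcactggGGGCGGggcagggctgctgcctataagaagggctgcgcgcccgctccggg
Ext2: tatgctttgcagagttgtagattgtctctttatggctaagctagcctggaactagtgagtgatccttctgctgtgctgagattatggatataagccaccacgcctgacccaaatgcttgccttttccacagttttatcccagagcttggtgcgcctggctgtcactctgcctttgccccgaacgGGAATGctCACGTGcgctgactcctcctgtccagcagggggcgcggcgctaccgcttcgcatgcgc
Extl2: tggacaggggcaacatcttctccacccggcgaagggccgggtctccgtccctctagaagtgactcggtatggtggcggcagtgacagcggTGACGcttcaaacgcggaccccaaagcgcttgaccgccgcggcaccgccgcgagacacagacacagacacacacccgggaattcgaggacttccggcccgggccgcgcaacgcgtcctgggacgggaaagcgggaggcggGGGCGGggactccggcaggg

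The GC box was found 5 times before Hspg2, 4 times before Sdc4 and 1 time before Extl2, and 32.7% of all 32851 windows of 250 bases held at least 1. The Extl1 window held no GC box and 1 CCAAT, a motif present in 33.8% of all windows. The full CRE, found in 1.55% of all windows, was in none of the 7 windows of these genes, and its half-site (17.8% of windows) stood only in the first window of Extl2. Ext2 had 1 TEAD motif (12.6% of windows) and 1 E-box (6.02%). A match describes letters only, and the lack of one says nothing about the factor. Hs6st1 held 6 GC boxes, the second Extl2 window 1 E-box, and no window a TATA box (12.4% of windows).

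Among the chain genes, Extl1 and Extl3 were lower in AAV-A2A astrocytes, by a log2 fold change (FC) of -1.98 ± 0.17 (SE) and -2.20 ± 0.19, whereas Ext1, Ext2 and Extl2 lay within 0.08 of 0. Extl1 encodes a glucosamine transferase of chain elongation. Its level was 300.2, 367 and 355 CPM in the libraries GFP-303, GFP-306 and GFP-307 (in this order throughout), and 91.1, 83.3 and 85.1 CPM in A2A-309, A2A-310 and A2A-313. The lowest control library was thus above the highest AAV-A2A library, and the mean of the model stood at 25.4% of the control. Extl3, the gene for the enzyme that starts the chain, had 182, 196 and 201 CPM in the control libraries and 49.8, 34.9 and 41.3 CPM in the AAV-A2A libraries. These groups did not overlap either, and the fitted level was 21.8% of the control.

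The genes for the polymerase subunits lay near the control. Ext1 gave 13.3, 23.4 and 19.6 CPM with AAV-GFP and 20.5, 15.3 and 23.3 CPM with AAV-A2A, a log2 FC of 0.07 ± 0.30. For Ext2 the values were 52.1, 78.3 and 65.9 CPM against 50.6, 53.2 and 88.6 CPM, a log2 FC of -0.03 ± 0.26. Both genes overlapped between the vectors. Extl2, whose enzyme can cap the linker and stop the chain early, had 47.3, 65.7 and 61.7 CPM in control and 52.5, 46.2 and 66.6 CPM in AAV-A2A libraries (log2 FC -0.08 ± 0.22), again with overlap.

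Seen per length, the makeup of the family differed between the vectors. RPKM, the CPM per kilobase of exon with scaling over all 12 libraries, allows levels of different genes to be compared. The 5 exostosin genes summed to 140.8 ± 14.5 RPKM (SD, n = 3) in AAV-GFP astrocytes and 53.8 ± 6.06 RPKM in AAV-A2A astrocytes. Extl1 made up 56.8 ± 0.157% of this sum in the controls and 37.2 ± 4.32% with AAV-A2A, and the share of Extl3 was 23.1 ± 1.52% and 12.8 ± 2.12%. The share of Extl2 stood at 12.1 ± 0.760% and 29.4 ± 2.06%, that of Ext2 at 6.40 ± 0.665% and 16.0 ± 3.60%, and that of Ext1 at 1.66 ± 0.293% and 4.49 ± 0.428%. In each of the 5 shares the groups of libraries were apart. Since the shares sum to 100%, the higher shares of Ext1, Ext2 and Extl2 stand beside nearly equal levels of these genes.

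**Figure D1:**
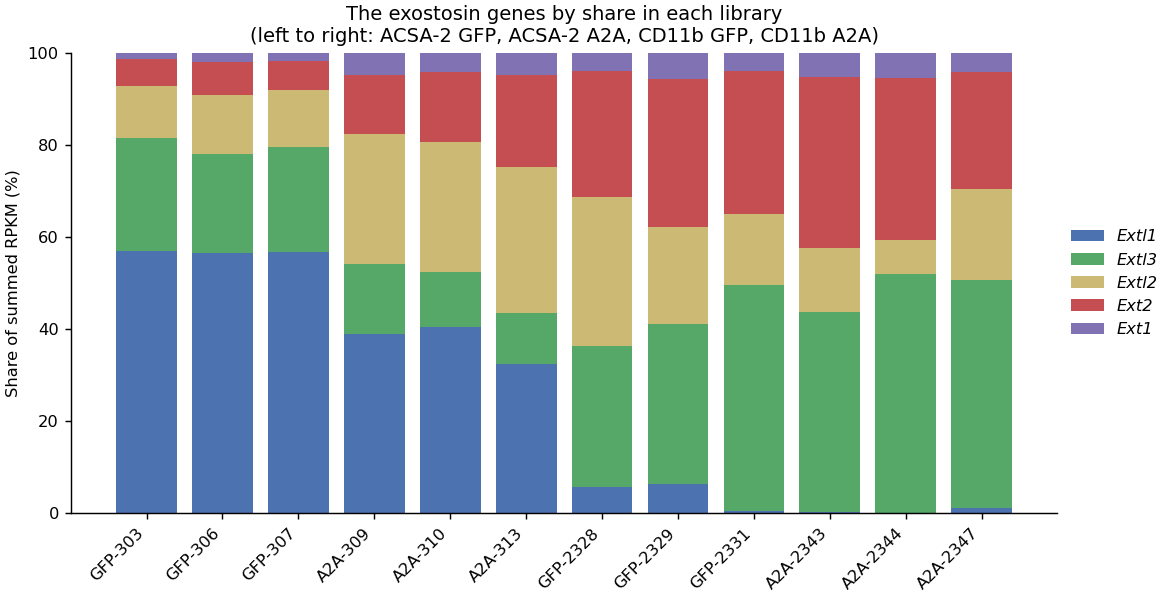
Stacked bars give the share (%) of each exostosin gene in the family's summed RPKM, 1 bar per library, ordered ACSA-2 GFP, ACSA-2 A2A, CD11b GFP and CD11b A2A. Extl1 fills 56.6 to 56.9% of the 3 control astrocyte bars, 32.3 to 40.4% of the AAV-A2A astrocyte bars and at most 6.42% of any CD11b bar.

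All 3 sulfation genes were lower in AAV-A2A astrocytes, without overlap between the vectors. Impad1 encodes the Golgi phosphatase that breaks down PAP. It was counted at 560.0, 613 and 617 CPM in the control libraries and at 141, 110.5 and 119 CPM in the AAV-A2A libraries, which is a log2 FC of -2.27 ± 0.17 or 20.7% of the control. Ndst1, for an enzyme that swaps acetyl for sulfate groups on glucosamine and so opens the chain to further sulfation, went from 61.2, 59.5 and 61.4 CPM to 19.99, 14.0 and 18.1 CPM (log2 FC -1.80 ± 0.22). Hs6st1, an O-sulfotransferase acting on glucosamine, was a low gene, with 17.3, 10.2 and 12.0 CPM against 9.15, 4.30 and 7.38 CPM (log2 FC -0.92 ± 0.39). Its lowest control library, at 10.2 CPM, was close to its highest AAV-A2A library, at 9.15 CPM. Of the exon bases of Hs6st1, 8.07% are shared with the antisense gene Gm37335, so its counts are uncertain, while the other 9 genes share none.

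Set beside their relatives, Impad1 and Ndst1 held smaller shares with AAV-A2A. Of the summed RPKM of Impad1 and Bpnt1, the cytosolic enzyme for the same nucleotide, Impad1 held 75.0 ± 2.40% in AAV-GFP astrocytes and 37.7 ± 6.47% in AAV-A2A astrocytes, and in CD11b libraries 39.8 ± 2.72% with AAV-GFP and 40.4 ± 4.64% with AAV-A2A. Ndst1 was 66.9 ± 3.86% of Ndst1, Ndst2 and Ndst3 together in the controls, with Ndst2 at 32.7 ± 3.81%, and 39.0 ± 4.96% with AAV-A2A, with Ndst2 at 53.4 ± 10.99%. For Impad1, Ndst1 and Ndst2 alike the shares of the astrocyte libraries did not overlap between the vectors.

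The core protein genes were lower as well, Hspg2 by far more than Sdc4. Hspg2, the gene of perlecan, which is a large matrix proteoglycan of basement membranes, gave 32.7, 41.4 and 31.4 CPM with AAV-GFP and 7.43, 7.92 and 3.57 CPM with AAV-A2A. Its log2 FC of -2.48 ± 0.35 (17.9% of the control) was the lowest of the 10 genes and the 176th lowest of the 16451 genes tested. Sdc4, a transmembrane syndecan with the highest RPKM of the 10 genes in control astrocytes, had 587, 607 and 510.2 CPM in the controls and 350.2, 288 and 358 CPM with AAV-A2A, a log2 FC of -0.78 ± 0.17. Among syndecans it accounted for 69.6 ± 1.56% of the summed RPKM with AAV-GFP and 56.5 ± 4.21% with AAV-A2A, and Sdc2 for 25.8 ± 1.11% and 39.7 ± 4.63%. Of the basement membrane core proteins Hspg2, Agrn and Col18a1, Hspg2 held 32.7 ± 5.17% and 9.13 ± 0.912%. Neither range overlapped between the vectors.

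**Figure D2:**
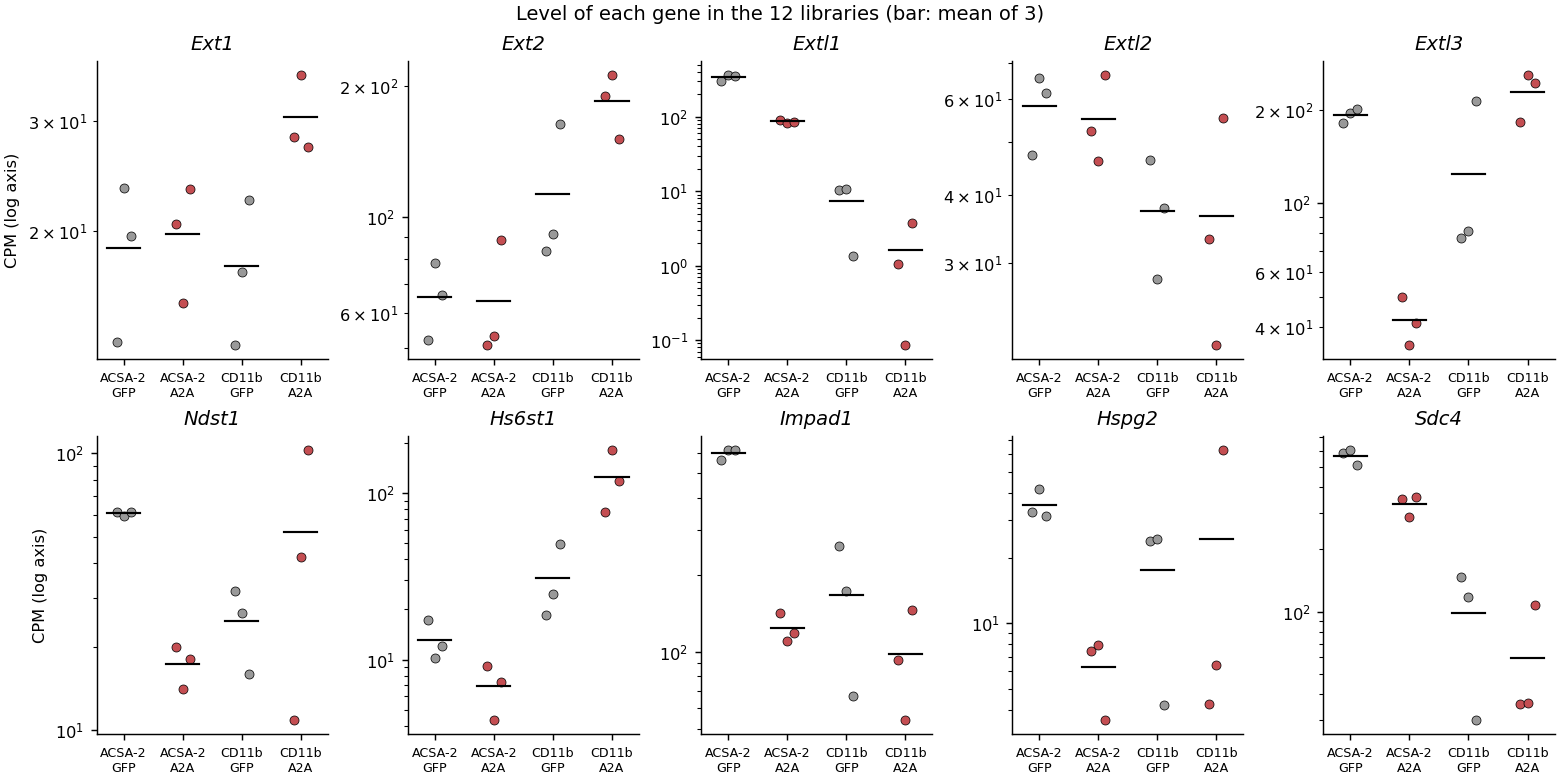
Points give the level (CPM, log axis) of each of the 10 genes in every library, with 3 libraries per group and a bar at the mean, grey for AAV-GFP and red for AAV-A2A. In ACSA-2 libraries 7 genes have all control points above all AAV-A2A points, and Ext1, Ext2 and Extl2 overlap.

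Of the 10 genes, 6 were called lower in astrocytes by edgeR's quasi-likelihood test (log2 FC beyond 0.32 in size and adjusted p below 0.05), as were 3.19% of all 16451 genes tested (3.36% in either direction), and 7 had groups without overlap on the lower side, as had 10.9% of all genes. The median log2 FC was -1.36 over the 10 genes and 0.02 over all genes. Since this contrast chose the genes, nothing is read from these counts. In bulk libraries fewer cells of a type and less RNA per cell cannot be told apart. The summed astrocyte markers overlapped between the vectors (23698 to 28586 CPM with AAV-GFP, 24148 to 38902 CPM with AAV-A2A), and so did the choroid plexus markers (558 to 614 CPM and 609.6 to 1016 CPM). Of the 4 markers of oligodendrocyte precursors the sum was 207 to 299 CPM with AAV-GFP and 52.7 to 81.7 CPM with AAV-A2A, and nearly all of it was Cspg4 (log2 FC -2.17 ± 0.24, adjusted p = 0.00226), the gene of a chondroitin sulfate proteoglycan that pericytes also express, while Gpr17 was at 0 in all 3 control libraries. Of 8 endothelial markers, 5 had lower and 3 higher levels with AAV-A2A (median log2 FC -0.65), and 3 were lower without overlap. Flt1, a VEGF receptor gene, was the 1 called (log2 FC -1.66 ± 0.24, adjusted p = 0.00523 by edgeR), Cdh5 stood at -2.62 (adjusted p = 0.156) and the abundant Cldn5 at 0.05, and the sums overlapped (472 to 544.4 CPM with AAV-GFP, 284 to 549.8 CPM with AAV-A2A). All 8 markers of mural and fibroblast cells had lower levels (median -0.51), none was called and none was free of overlap, and their sums were 989.5 to 1020 CPM and 682.3 to 1059 CPM. No defining marker of these 2 lists was at 0 in an ACSA-2 library. The part of such cells in the values above, Hspg2 among them, was not tested.

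Control astrocytes and control microglia differed in several of these genes, a comparison that shares the AAV-GFP astrocyte libraries with the one that chose them. By edgeR, 4 of the 10 were called higher in astrocytes, against 12.7% of all 16980 genes tested, and none was called lower, against 13% of all genes. An unadjusted p under 0.05 was found for 6 of the 10, without a share over all genes to set beside it. DESeq2 and limma-voom called the same 4 genes. Extl1 showed the widest gap, with 10.3, 10.7 and 1.34 CPM in GFP-2328, GFP-2329 and GFP-2331 beside its 300.2 to 367 CPM in control astrocytes (log2 FC 5.58 ± 0.79, adjusted p = 0.00502). Sdc4 had 147, 118 and 29.8 CPM in these CD11b libraries (log2 FC 2.60 ± 0.55, adjusted p = 0.0172). Impad1 stood at 258, 172 and 67.1 CPM (log2 FC 1.91 ± 0.46, adjusted p = 0.0256) and Ndst1 at 31.7, 26.4 and 16.0 CPM (log2 FC 1.36 ± 0.29, adjusted p = 0.0170). In all 4 genes every control astrocyte library was above every control CD11b library. Of all 10 genes, 6 were higher and 2 lower without overlap, against 25.4% and 24.9% of all genes.

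The other 6 genes did not pass. Hs6st1 and Ext2 were the pair with lower levels in astrocytes, both without overlap, with a log2 FC of -1.21 (adjusted p = 0.0989) and -0.76 (adjusted p = 0.157). Extl2 (0.68), Extl3 (0.66), Hspg2 (1.07) and Ext1 (0.13) had adjusted p-values of 0.112, 0.318, 0.227 and 0.820. The count of 4 fell to 1 when GFP-303, GFP-306, GFP-307 or GFP-2329 was left out, with Extl1 being the gene that remained. Without the choroid plexus-rich GFP-2328 and GFP-2329, which leaves GFP-2331 as the only CD11b control and assumes that it varies like the astrocyte libraries, 7 genes were called, 5 higher and 2 lower, the latter being Hs6st1 (-1.95, adjusted p = 0.0177) and Ext2 (-1.37, adjusted p = 0.0173). Between the AAV-A2A libraries of the 2 fractions, whose astrocyte values also chose the genes, Extl3 had a log2 FC of -2.40 in place of 0.66 and Ndst1 one of -1.47 in place of 1.36. The fractions were counted in separate tables with separate libraries, so fraction and library series cannot be told apart.

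Ordered by RPKM, control astrocytes gave Sdc4 (227 ± 19.8), Impad1 (92.6 ± 4.64), Extl1 (79.9 ± 8.04), Extl3 (32.3 ± 1.62), Extl2 (17.2 ± 2.77), Ext2 (9.07 ± 1.77), Ndst1 (7.45 ± 0.170), Hspg2 (2.497 ± 0.373), Hs6st1 (2.41 ± 0.685) and Ext1 (2.36 ± 0.631). Ext2 overlapped Ndst1 and the last 3 overlapped each other, and all other neighbours were apart. In AAV-A2A astrocytes Sdc4 was again first at 129.9 ± 14.7 RPKM, while Extl1, Impad1 and Extl2 lay together at 19.9 ± 1.14, 18.8 ± 2.60 and 15.9 ± 2.81 RPKM. In AAV-GFP microglia libraries Sdc4 had the highest mean, at 37.3 ± 22.4 RPKM, but every neighbour in their order overlapped the next. That place rested on the choroid plexus-rich GFP-2328 and GFP-2329 (54.8 and 44.99 RPKM). In GFP-2331 Sdc4 stood at 12.0 RPKM, below Extl3 at 36.3 and Ext2 at 23.0 RPKM. In AAV-A2A microglia Extl3 had the highest mean, at 37.8 ± 6.64 RPKM, but its libraries overlapped those of Hs6st1 and Sdc4, and in A2A-2347 Sdc4 was above it (38.9 against 37.1 RPKM).

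In microglia none of the 10 genes was called by edgeR (0% of 16949 genes tested was called, and 2 of the 10 and 16% of all genes had an unadjusted p under 0.05). Hs6st1 and Ext1 had the smallest unadjusted p-values and the only groups without overlap, both higher with AAV-A2A, as were 12.6% of all genes. Hs6st1 gave 18.6, 24.9 and 49.3 CPM in GFP-2328, GFP-2329 and GFP-2331 and 77.3, 182 and 118 CPM in A2A-2343, A2A-2344 and A2A-2347. Its log2 FC was 2.03 ± 0.50 with an adjusted p of 0.280 by edgeR, and DESeq2 called it (adjusted p = 0.0353), the 1 member of the group that tool called. Limma-voom called none of the 10, and DESeq2 called 502 of all genes. For Ext1 the levels were 13.1, 17.2 and 22.4 CPM against 28.3, 35.6 and 27.3 CPM (log2 FC 0.79 ± 0.32, adjusted p = 0.305). The median over the 10 genes was 0.60, against -0.05 over all genes tested.

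The remaining 8 genes overlapped between the vectors. Ext2 had 83.3, 91.2 and 164 CPM with AAV-GFP and 189.7, 212 and 151 CPM with AAV-A2A (log2 FC 0.71, adjusted p = 0.384). Extl3 had 77.3, 81.3 and 214 CPM and 183, 259.8 and 244 CPM (log2 FC 0.88 ± 0.48, adjusted p = 0.402). In both genes the low values were those of GFP-2328 and GFP-2329. Extl1 was near its detection limit here, with 1.04, 0.0849 and 3.70 CPM in the AAV-A2A libraries, where A2A-2344 held 3 counts, and a log2 FC of -2.21 ± 1.30 (adjusted p = 0.434). Ndst1 ranged from 10.8 to 103 CPM with AAV-A2A and from 16.0 to 31.7 CPM with AAV-GFP, and Hspg2 from 4.22 to 63.1 CPM and from 4.19 to 24.4 CPM.

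**Figure D3:**
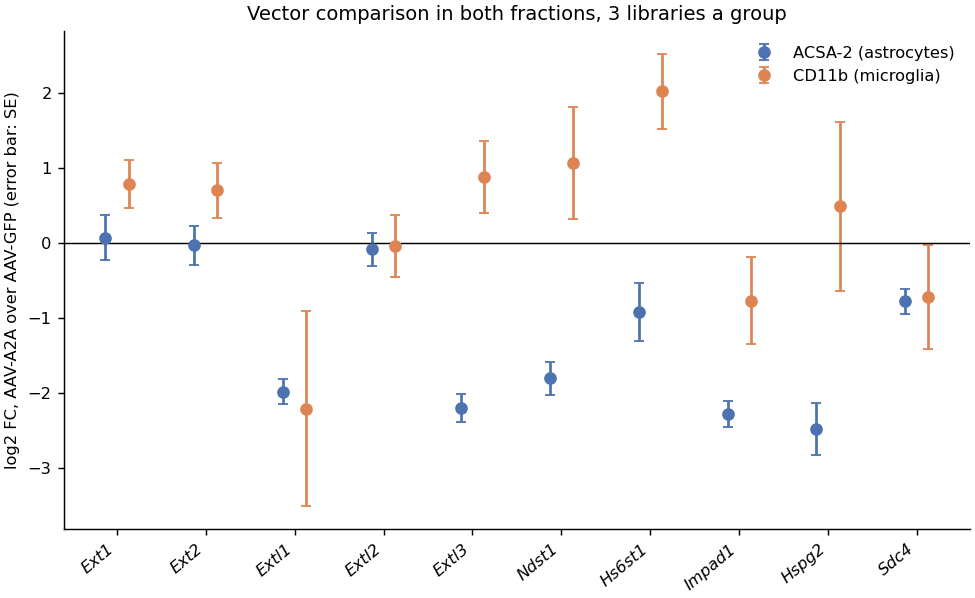
Points give the log2 FC of AAV-A2A over AAV-GFP with its SE for the 10 genes, blue for ACSA-2 and orange for CD11b libraries, 3 libraries per group. Blue values go from -2.48 (Hspg2) to 0.07 (Ext1), and orange ones from -2.21 (Extl1, SE 1.30) to 2.03 (Hs6st1).

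Levels in the CD11b libraries moved with the choroid plexus transcripts. Over the 6 libraries the log2 level of Extl1, Sdc4, Impad1 and Hspg2 had a Pearson r of 0.961, 0.960, 0.945 and 0.869 with the log2 sum of the 7 choroid plexus markers, and Ext2, Ext1, Extl3 and Hs6st1 one of -0.882, -0.756, -0.703 and -0.655 (Extl2 0.599, Ndst1 0.416). These values are a description over 6 points that fall into 3 libraries rich and 3 poor in these transcripts, which also differ in microglia markers. Sdc4 had 108 to 147 CPM in the rich libraries and 29.8 to 36.0 CPM in the poor ones, and Hspg2 24.0 to 63.1 CPM and 4.19 to 6.39 CPM, in each case without overlap. Without the 3 rich libraries Sdc4 and Impad1 had a log2 FC of 0.27 and 0.13 in place of -0.71 and -0.77, and Hs6st1 one of 1.40 (adjusted p = 1.00, with 1 control and 2 AAV-A2A libraries left). Leaving out A2A-2347 alone moved the median of the 10 genes from 0.60 to -0.16. The part of choroid plexus cells in these levels was not tested further.

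**Figure D4:**
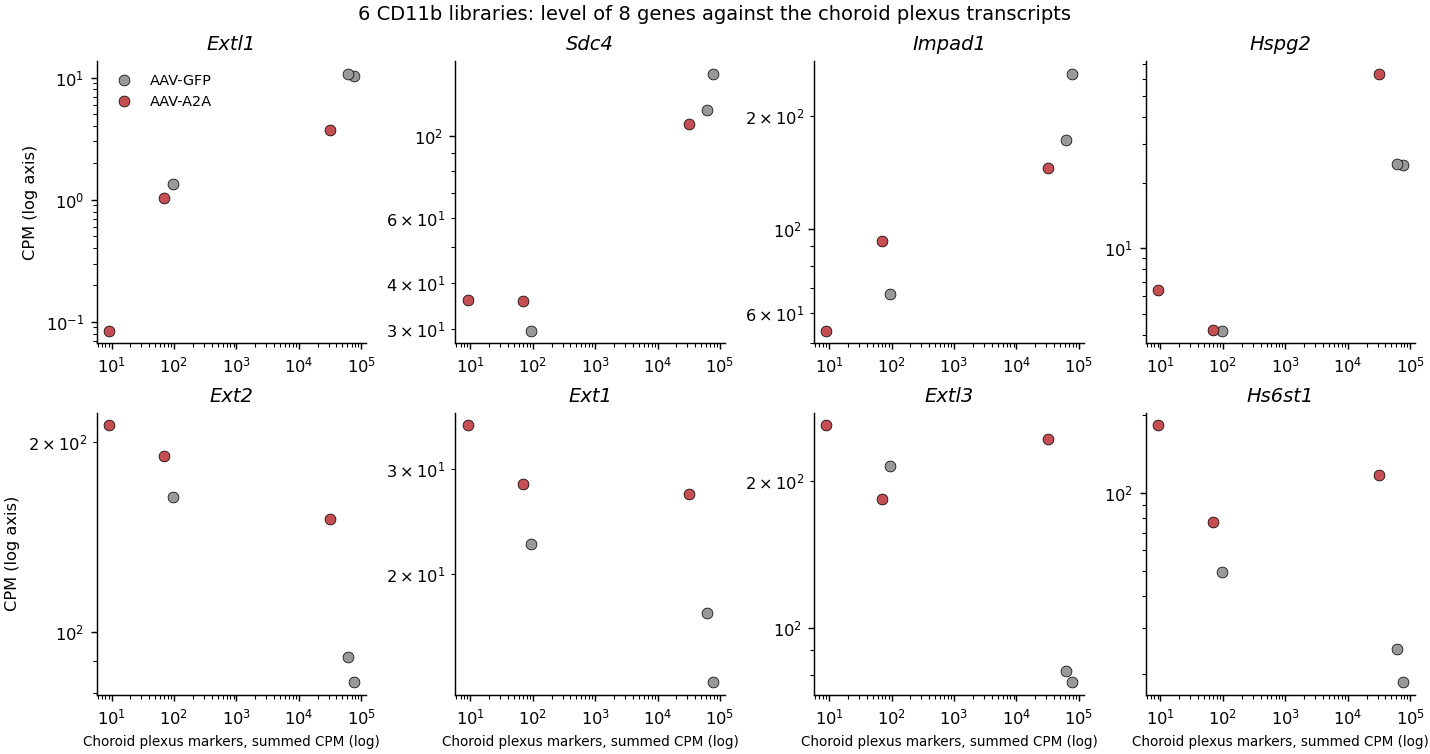
Each panel plots the level of a gene (CPM, log axis) against the summed CPM of 7 choroid plexus markers (log axis) in the 6 CD11b libraries, grey for AAV-GFP and red for AAV-A2A. Extl1, Sdc4, Impad1 and Hspg2 are higher in the 3 libraries on the right, which hold 31710 to 76425 CPM of choroid plexus transcripts, and Ext2 is lowest there.

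Around these 10 genes, 67 others of the heparan sulfate pathway were listed by role, of which 60 were tested in astrocytes. By edgeR, 5 of the 60 fell, against 3.19% of all genes, and none rose, against 0.176%. Of the 60, 13 had an unadjusted p under 0.05, a count given without its share over all genes and not read as an excess. DESeq2 fitted 66 of the pathway genes and called 8 lower and 1 higher, while over all 27866 genes it fitted it called 1000 lower and 277 higher. Limma-voom called 6 lower. The median log2 FC was -0.12, against 0.02 over all genes. Xylt2, which starts the linker sugar on the core protein, fell by 1.59 on the log2 scale (SE 0.20, adjusted p = 0.00301), from 25.7 to 37.0 RPKM with AAV-GFP to 9.60 to 11.02 RPKM with AAV-A2A. Papss2, a synthase of the sulfate donor, fell by 1.14 (SE 0.26, adjusted p = 0.0480). Sdc3, a syndecan, fell by 0.79 (SE 0.18, adjusted p = 0.0442). Of the lysosomal enzymes that break the chain down, the sulfatase gene Sgsh fell by 1.72 (SE 0.33, adjusted p = 0.0215) and the glucuronidase gene Gusb by 1.33 (SE 0.19, adjusted p = 0.00499).

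These 5 calls rested on individual libraries to differing degrees. Xylt2 passed in all 14 alternatives. Papss2 and Sdc3 missed the threshold when any of the 6 libraries was left out, and Sgsh when any of 5 was. In all 5 genes the vectors did not overlap, as in 12 of the 60 on the lower and 4 on the higher side (10.9% and 8.61% of all genes).

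The most abundant gene of each other role did not pass in astrocytes by edgeR. Ugp2, for the enzyme making UDP-glucose, was at 149 ± 6.62 RPKM in controls and 159.6 ± 59.995 with AAV-A2A, Sdc2 at 83.8 ± 2.04 and 91.3 ± 14.6 RPKM, and Slc35b2, the Golgi carrier of the sulfate donor, at 53.6 ± 5.42 and 66.5 ± 6.20 RPKM. Sulf2, an extracellular enzyme that removes sulfate from the chain, had 18.2 ± 3.34 and 8.43 ± 4.25 RPKM (log2 FC -1.08 ± 0.33, adjusted p = 0.146), and its libraries did not overlap. DESeq2 called Sulf2 lower (adjusted p = 0.0291), as did edgeR without A2A-309 (adjusted p = 0.0244). Ndst2 (3.66 ± 0.566 and 3.03 ± 1.43 RPKM) and Hs3st1 (4.48 ± 2.26 and 6.78 ± 4.17 RPKM) were low.

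**Figure D5:**
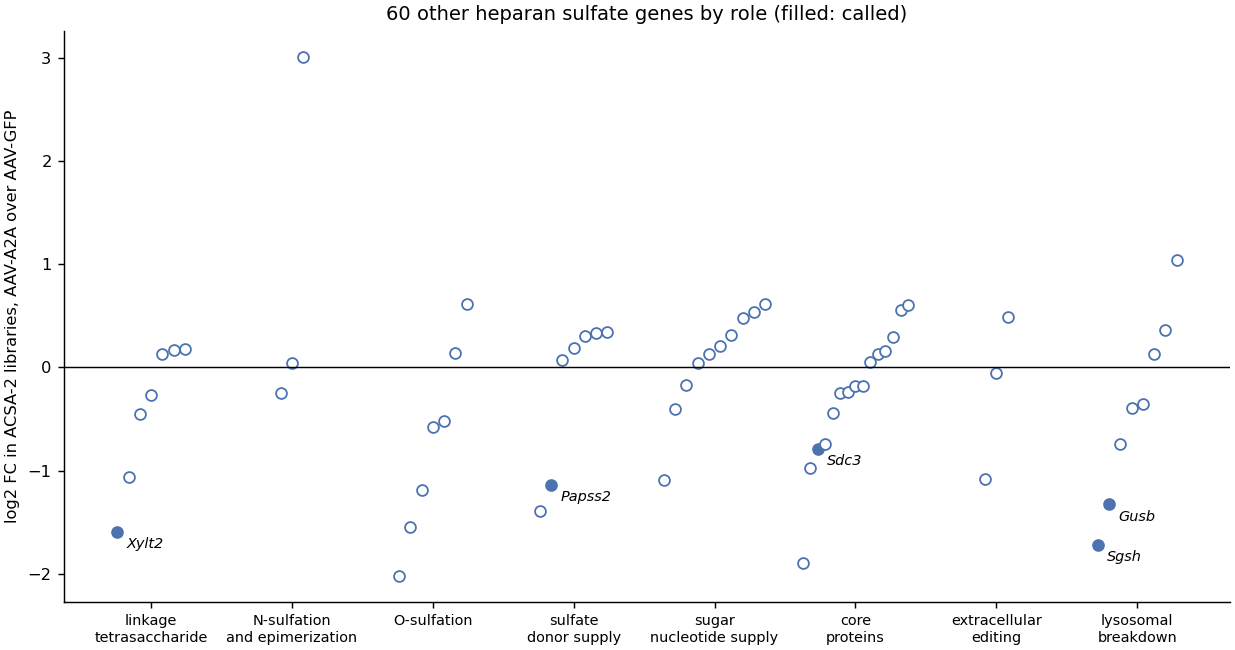
Points give the log2 FC (AAV-A2A over AAV-GFP, ACSA-2 libraries) of the 60 tested pathway genes outside the group of 10, by role, filled where edgeR called them. The 5 filled points, Xylt2, Papss2, Sdc3, Sgsh and Gusb, all lie below 0, and 29 of the 60 points lie above it.

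In the astrocyte vector comparison none of 15 tested genes of chondroitin sulfate synthesis, the chain that shares its linker with heparan sulfate, was called by edgeR (2 with an unadjusted p under 0.05, median log2 FC -0.43, 1 called lower by DESeq2), and none of 8 FGF ligands and receptors, which use heparan sulfate as a co-receptor (3 with an unadjusted p under 0.05, median -0.25, 1 called higher by DESeq2). Limma-voom called none of either list there, and the unadjusted counts stand without a share over all genes. In the microglia vector comparison edgeR and limma-voom called none of 14 and 8 genes of these lists. By edgeR 4 and 0 had an unadjusted p under 0.05, against 16% of all genes. Of the chondroitin genes 13 of 14 had higher levels there (median 0.83), while 52.1% of all genes had lower ones. Without overlap 5 were higher, against 12.6% of all genes, and DESeq2 called Chpf2 and Ust. GFP-2328, GFP-2329 and A2A-2347 were rich in choroid plexus transcripts, and their part in these values was not tested. Between the control fractions edgeR called 1 of 15 chondroitin genes higher in astrocytes and 2 lower, and 4 of 7 FGF genes higher. Over all genes 12.7% were called higher and 13% lower.

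In microglia 0 of 60 pathway genes were called by edgeR (7 with an unadjusted p under 0.05, against 16% of all genes, median 0.28). Without overlap 8 of the 60 were higher and 2 lower, against 12.6% and 10.9% of all genes, shares near or under the background. Among the 8 was Sdc3, with a log2 FC of 2.77 ± 0.71 (adjusted p = 0.280 by edgeR and 0.0184 by DESeq2), from 2.01 to 6.54 RPKM with AAV-GFP to 8.63 to 45.8 RPKM with AAV-A2A. The effect of the vector on Sdc3 in astrocytes minus that in microglia was -3.59 ± 0.77 (log2, SE), which missed the threshold (adjusted p = 0.0615 by edgeR, 0.00111 by DESeq2). Of 63 pathway genes tested for such a difference, 1 was called, Xylt2 (-1.90 ± 0.34, adjusted p = 0.0438), against 0.403% of all 18602 genes. The call was lost in 13 of 19 alternatives, among them those without any 1 of 10 libraries (adjusted p up to 0.262 over the alternatives). DESeq2 called 7 of the 64 pathway genes it fitted, against 1740 of all 25442 genes it fitted. For the 10 genes themselves the difference between the fractions was not tested, because the astrocyte values chose them.

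The pathway genes also differed between the control fractions. Of 62 tested, 14 were called higher in astrocytes (12.7% of all genes) and 10 lower (13%), and the 24 calls ranged from 7 to 31 with 1 library left out. Papss2 was the farthest apart of the named genes, with a log2 FC of 5.65 ± 0.77 (adjusted p = 0.00453). Ugp2 (2.45), Sulf2 (2.28), Sdc3 (1.91), Sdc2 (1.57), Sgsh (1.57) and Xylt2 (1.34) were also higher in astrocytes. Of these calls, that of Sgsh was not kept in 8 of 16 alternatives, Xylt2 in 6, Sdc3 in 5, Sdc2 in 4 and Sulf2 in 1. Papss2 and Ugp2 kept theirs in all. Ndst2 was lower (log2 FC -1.72 ± 0.51, adjusted p = 0.0492), a call lost in 8 of 16 alternatives (adjusted p up to 0.147). Between the AAV-A2A libraries Sdc3 and Xylt2 had a log2 FC of -1.62 and -0.51. Of the 8 lysosomal genes 4 were lower in astrocytes and 1 higher.

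The genes most like the 3 that gave the group its start were found over the 12 libraries among 11622 genes with a mean of at least 5 CPM. Skp1a (Pearson r 0.984), 1110051M20Rik (0.981) and Fam241b (0.980) were the closest to Extl1, Nudcd3 (0.977), Mon2 (0.965) and Sap130 (0.954) to Extl3, and Slc30a9 (0.972), Rfx3 (0.966) and Twsg1 (0.965) to Impad1. These correlations rest on 12 libraries that fall into 2 fractions and share the vector contrast, and they are given without a test.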

How the data were processed

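The members and the gene lists were chosen with earlier results of these data known. The authors trimmed the reads with cutadapt 1.10, aligned them to mm10 with STAR 2.5.3 and counted reads per gene with HTSeq 0.6.1p1, per the labels, and deposited raw counts without normalization. A strand setting is not given in the sources used here. The 25 empty unnamed columns of the tables were not used. Symbols, exon lengths and positions were taken from GENCODE for GRCm38 and matched 27813 of 27866 and 30289 of 30359 gene identifiers.

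Libraries were grouped from the labels and column names. AAV-A2A was compared with AAV-GFP in each fraction, the control fractions with each other, and the vector effect between fractions (an interaction over all 12 libraries), by edgeR 4.0.16 (TMM, filterByExpr, robust quasi-likelihood test, in R 4.3.3). Genes were called at a Benjamini-Hochberg adjusted p under 0.05 over all genes tested and an absolute log2 fold change over 0.32. The SE is the size of the log2 fold change divided by the root of the F statistic. CPM was scaled within a fraction and RPKM over all 12 libraries. Alternatives were DESeq2 1.42.0, limma 3.58.1 (voom), RLE and upper quartile scaling, other filters, a trend on length and GC content removed (mgcv 1.9.3), 1 fit of all libraries, each library left out, and, chosen after seeing the data, fits without the libraries rich in choroid plexus transcripts or with those transcripts as a covariate. The fits were tested on simulated data. Named were the 10 genes, every gene of the pathway, chondroitin and FGF lists called in a vector comparison, the gene with the highest RPKM in control astrocytes in each role, the most abundant gene of each marker list (1 item is not reported here), and the 3 genes most correlated with Extl1, Extl3 and Impad1. Family shares and motif searches carry no test. Other genes singled out were chosen after their values were seen. Figures were drawn with matplotlib 3.10.9.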

Additional observations from a re-analysis of the deposited data

Results flagged for a closer look

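Xylt2, the gene of a xylosyltransferase that starts the linker sugar, differed between the fractions in its vector effect. Its log2 FC in astrocytes minus that in microglia was -1.90 ± 0.34 (edgeR interaction over all 12 libraries, adjusted p = 0.0438), and it was the 1 pathway gene of 63 tested to pass, against 0.403% of all 18602 genes. It was lower in all 3 AAV-A2A astrocyte libraries than in any control, while microglia libraries had 9.30 to 16.0 RPKM with AAV-GFP and 14.6 to 15.5 RPKM with AAV-A2A. The call missed the threshold in 13 of 19 alternatives, with adjusted p-values from 5.35e-05 to 0.262, and was lost when any of 10 of the 12 libraries was left out.

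Hs6st1 differed between the vectors in opposite directions in the 2 fractions. Every AAV-A2A astrocyte library was below every control (log2 FC -0.92), and every AAV-A2A microglia library was above every control (log2 FC 2.03). The microglia comparison did not pass by edgeR (adjusted p = 0.280). In astrocytes the gene was not called either, and nothing is read from its test there, since that contrast chose the group. Without overlap, 10.9% of all genes were lower in astrocytes and 12.6% higher in microglia. Of its exon bases 8.07% are shared with an antisense gene. The difference was not tested, because the astrocyte values chose this gene.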

How the results depend on the processing

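No paired analysis was possible because the groups share no replicate numbers. The microglia comparison made no call in the main fit while DESeq2 made 502, so a missed threshold there does not show equal levels. In astrocytes Extl1, Extl3, Ndst1, Hs6st1, Impad1, Hspg2 and Sdc4 kept their direction in all alternatives. The log2 FC went from -2.08 to -1.74 for Extl1, -2.34 to -1.93 for Extl3 and -2.38 to -2.17 for Impad1. Ext1, Ext2 and Extl2, near 0 in the main fit, changed sign, with -0.14 to 0.26, -0.34 to 0.29 and -0.24 to 0.03. Upper quartile scaling moved the median log2 FC of all astrocyte genes from 0.02 to 0.12. The causes of the changes below were not tested.

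Calls over all genes numbered 1277 with DESeq2 and 156 in 1 fit of 12 libraries in astrocytes (553 in the main fit, 272 to 448 with a library left out), 502 with DESeq2 and 3 without the libraries rich in choroid plexus transcripts in microglia (0), 6792 with DESeq2 and 7755 in AAV-A2A libraries between fractions (4377, 1927 to 5836 with a library left out), and for the interaction 1740 with DESeq2, 10 with RLE, 0 with upper quartile scaling, 345 with at least 10 counts in every library and 0 with the length and GC trend removed (75, 0 to 1286 with a library left out). Of the pathway genes, DESeq2 called 9 in astrocytes, 1 in microglia and 7 in the interaction. In astrocytes 3 were called with upper quartile scaling, 1 in the fit of 12 libraries and 2 to 4 with a library left out (5). In the interaction 0 were called with RLE, upper quartile scaling or the trend removed, 3 with at least 10 counts and 0 to 8 with a library left out (1). Between fractions 7 to 31 were called with a library left out (24). Of the 10 genes, the fit of 12 libraries called 2 in astrocytes (6), DESeq2 1 in microglia (0), and between fractions 7 were called without the choroid-rich controls and 1 to 5 with a library left out (4).

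Other values that changed sign are given next, under the threshold in the main fit unless said otherwise. In microglia Extl2 (-0.03) was 0.013 without a filter, 0.12 with the trend removed and 0.14 with the choroid covariate, and -0.45 to 0.23 with a library left out. Hspg2 (0.49) was -0.054 with voom, -0.14 with the trend removed and -1.70 to 0.96 with a library left out. Without the 3 choroid-rich libraries Impad1 was 0.13, Sdc4 0.27, Xylt2 -0.10, Papss2 0.90, Gusb -0.34 and Ugp2 0.094, and with the covariate Sdc4 was 0.24, Papss2 0.084, Gusb -0.033 and Ugp2 0.11. Ugp2 was 0.23 with the trend removed and -0.25 to 0.039 with a library left out, and Sgsh -1.08 to 0.075. In astrocytes Ugp2 was -0.12 with the trend removed and -0.24 to 0.30 with a library left out, and Ndst2 -0.67 to 0.020. Between fractions the AAV-A2A libraries gave Ext1 -0.58, Extl3 -2.40, Ndst1 -1.47, Hspg2 -1.82, Xylt2 -0.51, Sdc3 -1.62 and Slc35b2 -0.16. Of these, Ndst1, Xylt2 and Sdc3 had been called higher in astrocytes in the main fit. Sdc3 passed in the opposite direction between the AAV-A2A libraries (adjusted p = 0.0388 by edgeR). Without the choroid-rich controls Ext1 was -0.30, Extl3 -0.20, Hs3st1 0.19 and Slc35b2 -0.63. Slc35b2 was -0.060 with the trend removed and -0.20 to 0.52 with a library left out, and Ext1 -0.069 to 0.38. In the interaction Papss2 was -0.0045 with voom, -0.17 with the trend removed and -0.50 to 0.56 with a library left out, Ugp2 -0.43 with the trend removed and -0.17 to 0.35 with a library left out, and Slc35b2 0.017 with upper quartile scaling and -0.74 to 0.12 with a library left out.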

Other observations

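The most abundant genes of the marker lists named here did not pass in the vector comparisons given by edgeR. The list of oligodendrocyte precursors is not among them, since its Cspg4 was called lower in astrocytes (log2 FC -2.17, adjusted p = 0.00226 by edgeR). In astrocytes and microglia respectively the log2 FC was 0.22 (Cbr2) and 1.38 (F13a1) for border macrophages, 0.05 and -1.77 for endothelial cells (Cldn5 in both, while Flt1 of this list was called lower in astrocytes, at -1.66), -0.07 (Kcnj8) and 2.35 (Pdgfrb) for mural and fibroblast cells, and 0.20 and 0.42 for oligodendrocytes (Cnp). It was -0.66 (Snap25) and -4.23 (Camk2a) for neurons, 0.05 (Ccdc153) and -1.79 (Rsph1) for ependymal cells, -0.19 and -4.60 for erythrocytes (Hbb-bs, which has a near-identical neighbour gene), 0.59 and -2.26 for choroid plexus (Ttr), and 0.22 (Aldoc) and 0.47 (Slc1a3) for astrocytes. For microglia markers it was 1.74 (Csf1r) in the microglia comparison. A single gene does not stand for its list. In the microglia comparison 5 of 8 astrocyte markers and 5 of 7 oligodendrocyte markers had lower levels (median log2 FC -0.49 and -0.13), unlike Slc1a3 and Cnp. Of 8 mural and fibroblast markers there, 5 were higher and 3 lower, and the 2 without overlap were lower. In astrocytes 3 of 5 ependymal markers were lower, and Foxj1 was so without overlap (log2 FC -1.18).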
